A study of Homo sapiens with 4 samples.

Results

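The 7 genes described here are transcription factors of the melanocyte lineage: SOX10, PAX3, IRF4, TFAP2A, SOX5, SOX9 and BNC2. Their data are the places where TBX3 was found on chromatin around them in 501mel, an established human melanoma cell line. A peak belonged to a gene when the deposited annotation named that gene as the one with the nearest transcription start site (TSS), at any distance. By this rule 25 of 32479 peaks in replicate 1 and 31 of 40494 peaks in replicate 2 belonged to the 7 genes. They named 4 of the 7 genes, SOX10, IRF4, SOX5 and BNC2, where 41.6% of all protein-coding genes were named by a peak of either list. No peak in the lists used here named PAX3, TFAP2A or SOX9.

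Chromatin immunoprecipitation followed by sequencing (ChIP-seq) was done on TBX3 carrying an HA tag (TBX3-3xHA), a short peptide recognised by the antibody HA (12CA5). The design had 2 ChIP samples and 2 input samples, all of 501mel cells, with no treatment named in the labels. Input is sheared chromatin without the antibody step, and no peaks of an input sample were counted here. Whether input served as the control in peak calling is not given in the sources used here. Nothing in the labels says whether the replicates came from separate cultures, or how much tagged protein the cells made beside their own TBX3. Peak lists hold no expression values, so the identity of the cells could not be checked from them.

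Melanocytes arise from the neural crest, and a small circuit of transcription factors specifies them and keeps the pigment programme on. SOX10 and PAX3 act together on MITF, the master regulator of melanocyte genes, while TFAP2A works beside MITF at shared enhancers and IRF4 takes part in the control of tyrosinase. SOX5 can oppose SOX10 in this lineage, SOX9 is a close relative of SOX10 best known from cartilage, and BNC2 is a zinc finger factor tied to skin pigmentation in genetic studies. TBX3 belongs to the T-box family of developmental regulators and acts largely as a repressor, like its relative TBX2.

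Each peak was deposited as a summit, a single base in hg38, with a score whose scale is not stated. Scores were therefore ranked only within their own list, where rank 1 is the highest score, and they are also given as a percentile of the list. A summit was called shared when a summit of the other replicate lay within 200 bp. Of the replicate 1 summits of the 7 genes, 18 of 25 were shared (72.0%, exact 95% interval 50.6% to 87.9%), beside 69.9% of all replicate 1 summits. Of the replicate 2 summits, 18 of 31 were shared (58.1%, 39.1% to 75.5%), beside 56.1% of all replicate 2 summits. Both shares lay near those of the whole lists. The intervals cover counting error only.

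The 18 shared regions were unevenly spread, with 11 at SOX5, 5 at IRF4 and 1 each at SOX10 and BNC2. By annotation 14 of the 18 were in introns and 4 were intergenic, beside 39.7% and 53.2% of all shared regions. More than 50 kb from the TSS lay 13 of the 18, beside 50% of all shared regions. SOX5 made up most of both counts. Its 11 regions were all in introns, and 1 of them lay at most 50 kb from the TSS. IRF4 and SOX10 were the members with a shared region at most 10 kb from their TSS, which is 2 of 7 genes, beside 10.1% of the 19974 protein-coding genes of the RefSeq table. At any distance 4 of the 7 had one, beside 28.6% of protein-coding genes. The genes were chosen with earlier results known, so these shares are descriptions and carry no test.

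**Figure D1:**
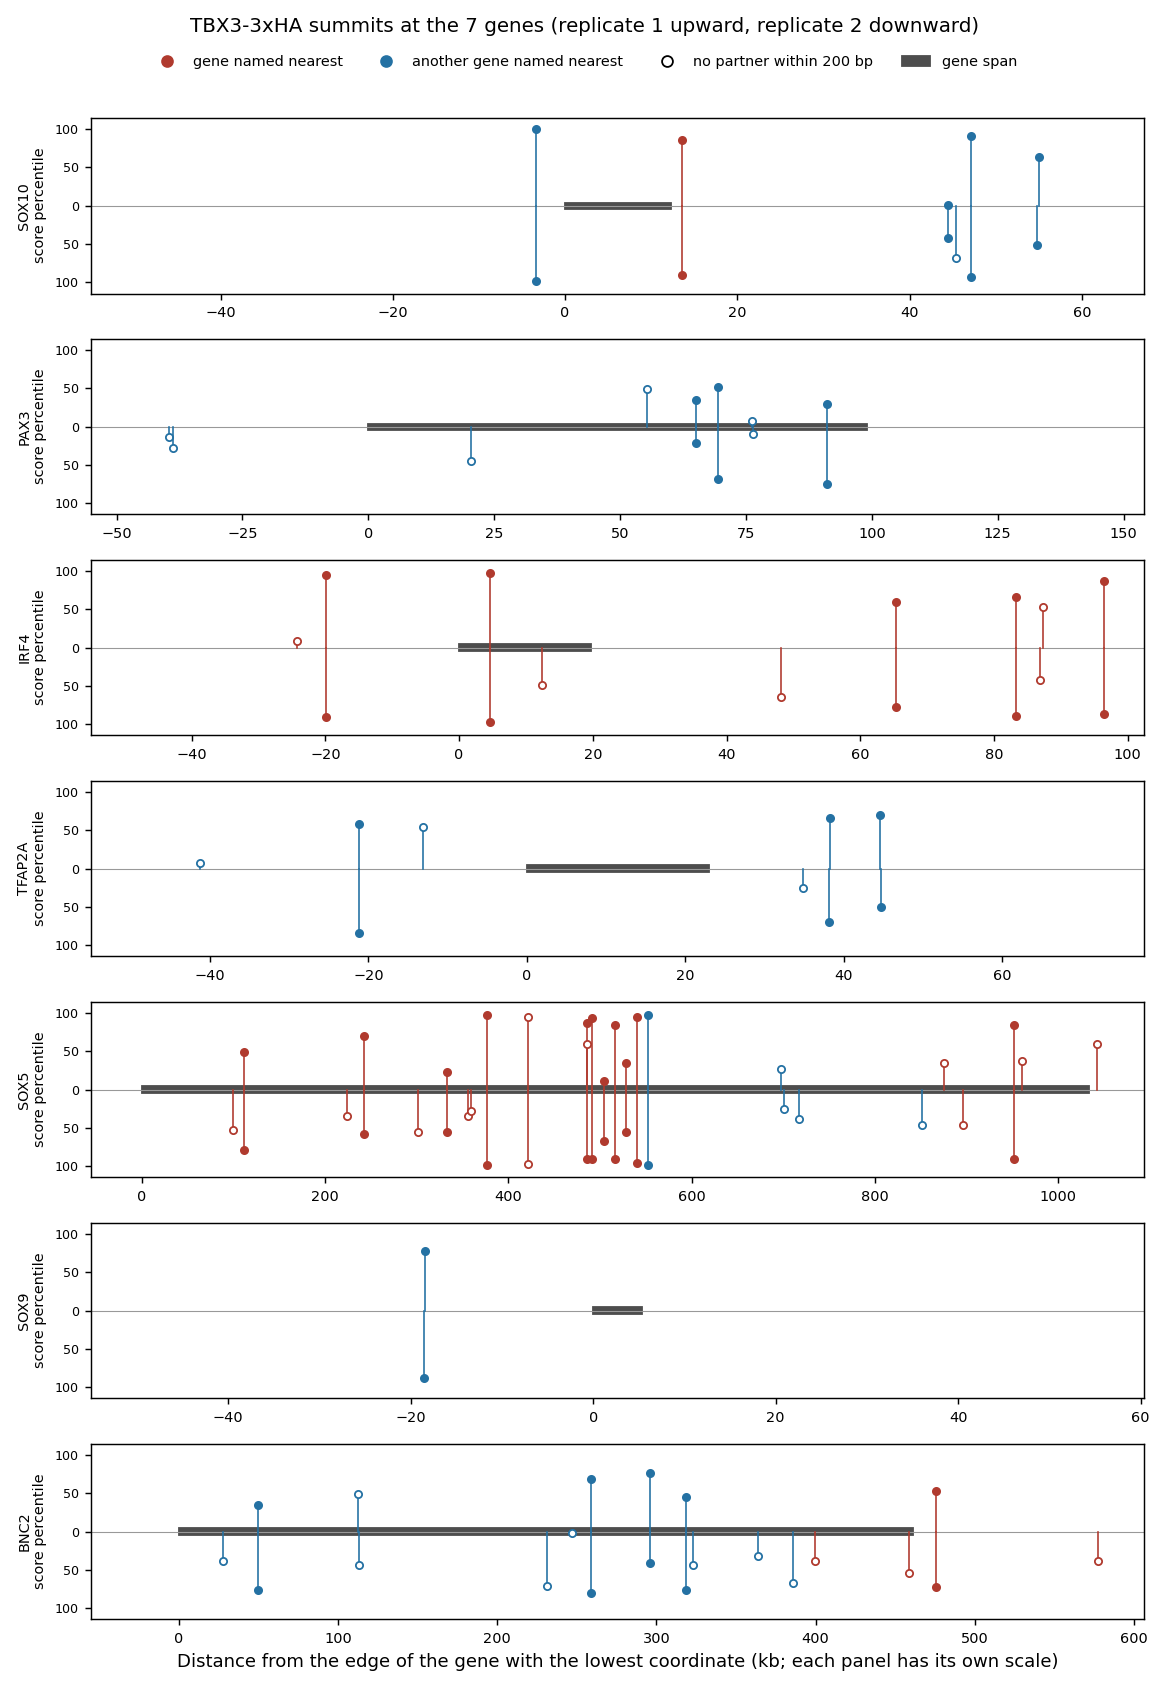
Summits at the 7 genes, 1 panel a gene, with the horizontal axis in kb from the edge of the gene with the lowest coordinate and the vertical axis giving the score percentile, upward for replicate 1 and downward for replicate 2. Red marks summits that name the gene as nearest, blue those that name another gene, and open circles those with no partner within 200 bp; IRF4 has tall red pairs in and beside the gene, SOX5 a run of pairs near its middle, and the summits at PAX3, TFAP2A and SOX9 are all blue.

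SOX10 is the SOX protein on which melanocytes depend from the neural crest onward, and it had 1 summit in each list. The summit was at 37985860 on chromosome 22 in replicate 1 and at 37985864 in replicate 2, a gap of 4 bp. It lay 1328 bp and 1332 bp upstream of the SOX10 TSS. The scores were 53.0 (rank 4548, percentile 86.0) and 98.6 (rank 3548, percentile 91.2), in the upper part of both lists. The site falls in intron 4 of 4 of a transcript of POLR2F, a gene for an RNA polymerase subunit whose span encloses SOX10, and in a simple repeat of the unit AC. Simple repeats held 3 of the 25 and 2 of the 31 summits of the 7 genes, beside 1.25% of all replicate 1 summits and 1.13% of all replicate 2 summits. Whether the repeats bear on these positions was not tested.

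A region with higher scores lay on the other side of SOX10 under another name. Its summits at 37968987 (replicate 1) and 37968973 (replicate 2) were 3.33 kb beyond the edge of the gene, in a non-coding exon of a POLR2F transcript. The nearest start site there belonged to the microRNA gene MIR6820. Scores were 347.4 (rank 159) and 307.4 (rank 550), the highest of any region within 50 kb of SOX10 in both lists. Another pair, 34.8 kb beyond the opposite edge at 38019404 and 38019467, named MIR4534 and had scores of 78.3 (rank 2836) and 120.6 (rank 2721). Altogether 5 shared regions lay within 50 kb of SOX10, and 1 of them named it. No summit of either list lay inside the 12.2 kb of the gene itself.

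IRF4, an interferon regulatory factor of lymphocytes and melanocytes, had 7 summits in replicate 1 and 8 in replicate 2, of which 5 were shared. The shared region with the highest scores lay inside the gene, in intron 4 of 8, with summits at 396330 and 396321 on chromosome 6. That is 4591 bp and 4582 bp downstream of the TSS. Its scores were 156.6 (rank 913, percentile 97.2) and 208.6 (rank 1169, percentile 97.1). It was also the shared IRF4 region nearest to a TSS. As background, intron 4 of IRF4 is known for an enhancer active in melanocytes, where a common variant is associated with hair and skin colour and where TFAP2A and MITF act.

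The other shared IRF4 regions stood on both sides of the gene. Upstream, summits at 371850 and 371877 lay 19.9 kb from the TSS in a simple repeat, with scores of 116.6 (rank 1568) and 91.4 (rank 3918). Downstream, the pair at 457113 and 457080 lay within an LTR element and scored 17.1 and 41.3. The intergenic pair at 475017 and 475027 scored 21.1 and 87.4. The pair at 488197 and 488147 scored 57.0 and 73.2 and was 96.5 kb and 96.4 kb downstream, in the last intron of EXOC2, a gene for a subunit of the exocyst. IRF4 thus had the nearest start site even inside its neighbour. Summits at 479129 in replicate 1 and 478590 in replicate 2 lay 539 bp apart and did not count as shared.

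No summit lay in the 250 bases before the IRF4 start given by RefSeq, nor in the same window at PAX3. The promoter table held 6 such windows for 5 of the genes, PAX3, IRF4, TFAP2A (2 starts), BNC2 and SOX5, and none of the 6 held a summit of either list. The share of all such windows that held a summit is not given here. Summits annotated at a promoter were few throughout, 2.33% of all replicate 1 summits and 2.12% of all replicate 2 summits. The windows of IRF4 and PAX3 are printed to show start-site sequence without a summit (RefSeq, GRCh38.p14, 5′ to 3′ on the strand of the gene). IRF4 is chr6:391502-391751 on the plus strand and PAX3 is chr2:222298999-222299248 on the minus strand. Capitals mark TATAAA and CCAAT, the letters of the TATA and CCAAT boxes, searched on both strands.
IRF4 promoter: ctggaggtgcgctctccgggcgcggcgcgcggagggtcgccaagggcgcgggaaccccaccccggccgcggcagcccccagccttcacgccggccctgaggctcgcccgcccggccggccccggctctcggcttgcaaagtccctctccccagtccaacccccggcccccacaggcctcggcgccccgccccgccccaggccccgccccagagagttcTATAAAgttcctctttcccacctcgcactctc
PAX3 promoter: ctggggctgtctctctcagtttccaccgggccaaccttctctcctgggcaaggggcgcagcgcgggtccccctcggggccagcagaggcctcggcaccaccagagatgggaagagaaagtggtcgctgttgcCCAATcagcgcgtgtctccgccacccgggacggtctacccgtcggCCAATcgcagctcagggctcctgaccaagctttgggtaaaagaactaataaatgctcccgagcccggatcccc
The IRF4 window held 1 TATAAA, beginning 32 bases before the start. The PAX3 window held 2 matches to CCAAT, beginning 118 and 73 bases before the start. TATAAA occurred in 10.7% and CCAAT in 32.0% of the 35116 windows of this length in the table. The T-box core GGTGTGA, searched on both strands, was in none of the 6 windows of these genes and in 2.76% of all windows. Its shorter form GGTGTG, which lies within it, was in none of the 6 and in 14.2% of all. The nearest summits to the printed IRF4 start were the intronic pair, 4.58 kb and 4.57 kb away.

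SOX5, a SOXD protein that binds DNA without an activation domain of its own, had the most summits of the 7 genes, 16 in replicate 1 and 18 in replicate 2. Of these, 11 were shared, and they lay between 43.2 kb and 178.2 kb from a TSS. Its span on chromosome 12 is 1033 kb, the longest of the 7. The shared region with the lowest rank sum among those naming SOX5 had summits at 23906527 and 23906517. It scored 181.9 (rank 710, percentile 97.8) and 319.6 (rank 488, percentile 98.8). It was also the one nearest to a TSS, 43.2 kb downstream of it.

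A run of shared regions lay in a single SOX5 intron, intron 4 of 17 of one transcript. The intron held 8 shared regions, and 7 of them, from 24015045 to 24081826 in replicate 1, lay in 66.8 kb at a median spacing of 11.9 kb. This run was picked out after its positions were seen. Scores in the run went from 4.50 to 178.8 in replicate 1, with a median of 57.9, and from 16.5 to 316.2 in replicate 2, with a median of 94.5. Regions with low and high scores stood side by side in it. At its end, summits at 24081826 and 24081849 had the highest scores of the run, 178.8 (rank 727) and 316.2 (rank 508). They named the microRNA gene MIR920 rather than SOX5, although they lay inside SOX5. Apart from the run, the region at 24480971 in both lists lay in intron 1 of 16 within an L1 element and scored 46.2 and 95.8.

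At an internal promoter of SOX5 each replicate had a summit of high score, but not at the same place. In replicate 1 it was at 23950405, 627 bp from the TSS, with a score of 119.7 (rank 1500, percentile 95.4). In replicate 2 it was at 23951016, 16 bp from the TSS, with a score of 241.7 (rank 892, percentile 97.8). The summits were 611 bp apart, so this was no shared region at 200 bp or at 500 bp and became one when 1000 bp was allowed. That setting, chosen after seeing the data, made SOX5 the third of the genes with a region within 10 kb. These were the only summits naming one of the 7 genes that lay within 1 kb of a TSS. At 200 bp, shared regions at most 1 kb away were found for none of the 7 genes, beside 2.99% of protein-coding genes.

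BNC2 on chromosome 9, a gene of 461.2 kb, was named by 1 summit in replicate 1 and 4 in replicate 2. The 1 shared region had summits at 16885133 and 16885164, 14.3 kb and 14.4 kb upstream of the TSS. Its scores were 14.1 (rank 14904, percentile 53.4) and 31.1 (rank 11160, percentile 72.2). The summit nearest to a BNC2 TSS was in replicate 2 only, at 16868167, 2621 bp downstream in intron 1 of 5, and scored 16.2 (percentile 54.4). The remaining replicate 2 summits, at 16809092 and 16987160, both scored 9.86. All of these summits were of low or middling rank.

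The nearest-TSS rule left out summits that lay within these genes. When every summit between the edges of the gene in the RefSeq table was taken instead, the 7 genes held 28 summits in replicate 1 and 42 in replicate 2, with 20 shared regions. Of these 20, 8 named another gene as nearest (40.0%), beside 37.7% of the 9248 shared regions inside any protein-coding gene. Without SOX5 it was 7 of 8. The share was thus near that of the whole list, and the regions renamed were those inside PAX3 and BNC2, with 1 in SOX5. Under the same change IRF4 went from 5 shared regions to 1 and SOX10 from 1 to 0, since their other regions lie outside the gene.

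**Figure D2:**
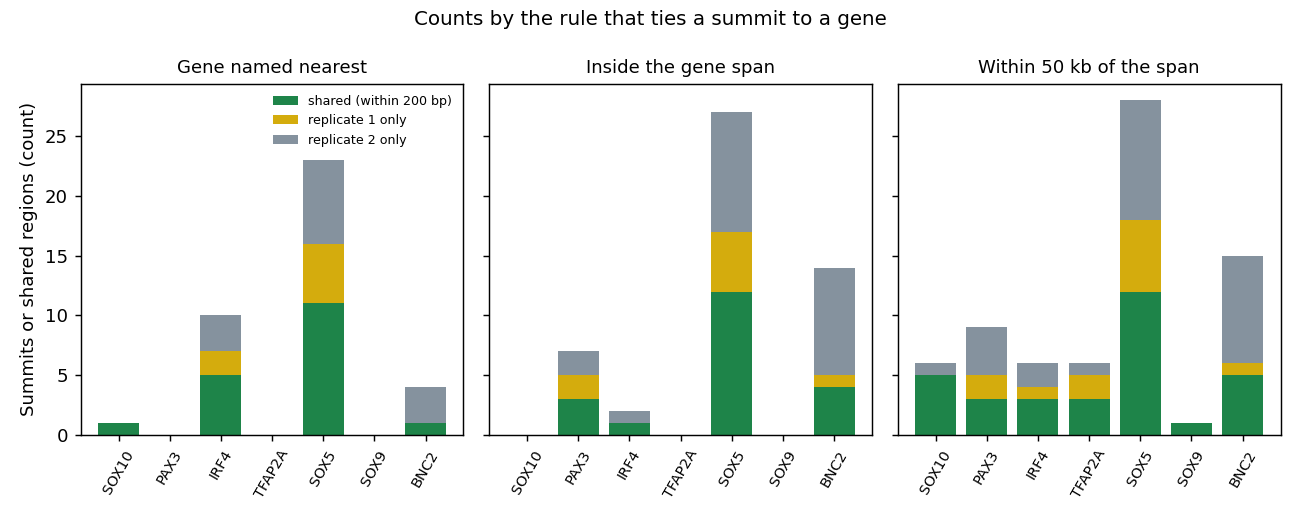
Counts at each gene (vertical axis) under 3 ways of tying a summit to it, stacked as shared regions (green), replicate 1 only (yellow) and replicate 2 only (grey). PAX3 goes from 0 to 3 shared regions and BNC2 from 1 to 4 when the gene span is used, and SOX5 goes from 11 to 12, while IRF4 goes from 5 to 1 and SOX10 from 1 to 0.

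PAX3, the paired-box factor that works with SOX10 upstream of MITF, held 5 summits in replicate 1 and 5 in replicate 2, all naming CCDC140. CCDC140 is a non-coding gene on the other strand, and its start lies 851 bp inside PAX3 from the PAX3 start, so it was nearer to each of these summits. The shared regions, 3 in number, were all in intron 4 of 8. The one with the lowest sum of ranks had summits at 222269294 and 222269387, with scores of 13.2 (rank 15568) and 27.0 (rank 12524). The one nearest to the PAX3 start, 7.92 kb and 7.94 kb from it at 222291075 and 222291058, scored 7.43 and 35.3. The third, at 222264907 and 222264989, scored 8.54 and 6.22. Percentiles of the 3 regions ran from 21.4 to 74.9 over both lists, so PAX3 had recurrent summits of low to middling rank. One more pair, at 222276112 and 222276329, was 217 bp apart and just missed the limit of 200 bp.

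Inside BNC2 a further 4 regions were shared under other names. The antisense gene BNC2-AS1 was named at 3 of them and C9orf92, a gene beyond the end of BNC2, at the fourth. The one with the lowest rank sum had summits at 16668394 and 16668307, in intron 2 of 5, and scored 23.1 (rank 10124) and 47.7 (rank 7704). The others scored 8.54, 31.4 and 11.2 in replicate 1 and 38.6, 10.6 and 36.5 in replicate 2, so their order differed between the lists. In all BNC2 held 5 summits in replicate 1 and 13 in replicate 2. A pair at 16522181 and 16522389 was 208 bp apart and so was not counted.

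TFAP2A and SOX9 held no summit of either list inside the gene. TFAP2A, the AP-2 factor of neural crest and melanocytes, had 3 shared regions within 50 kb. Summits at 10375449 and 10375496, 21.2 kb from the gene, named TFAP2A-AS2 and had the lowest rank sum of the 3. They scored 16.1 (rank 13643) and 57.1 (rank 6488). Those nearest to TFAP2A, 15.3 kb from it at 10434926 and 10434884, lay at the promoter of the non-coding gene LINC00518, 104 bp and 62 bp from its TSS. They scored 20.8 (rank 11191) and 27.8 (rank 12419). The pair at 10441332 and 10441373 named MIR5689 and scored 24.0 and 13.9. In neither list did any of the 3 reach the 90th percentile.

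SOX9 had a single shared region within 50 kb, at 72102543 and 72102517 on chromosome 17. It lay 18.5 kb from the gene in intron 2 of 6 of SOX9-AS1, a non-coding gene that comes within 227 bp of SOX9. Scores were 34.1 (rank 7027, percentile 78.1) and 78.5 (rank 4636, percentile 88.5). SOX9, SOX10 and TFAP2A thus had their shared regions outside the gene.

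Within 50 kb of its span every one of the 7 genes had at least 1 shared region, beside 51.6% of protein-coding genes. Inside the span 4 of 7 did, beside 20.9%. The 50 kb window was chosen after seeing the data. Of the 32 shared regions within 50 kb, 16 named one of the 7 genes. Long genes have more room for a region, so densities were also computed. SOX5 held 1.16 and BNC2 0.867 shared regions per 100 kb of span, beside 0.735 over the spans of all protein-coding genes. PAX3 held 3.03 per 100 kb, from 3 regions, and IRF4 5.08 per 100 kb, from 1 region. SOX5 thus had the highest count but not the highest density.

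By score, 8 of the 34 shared regions that named one of the 7 genes or lay within 50 kb of it stood above the 90th percentile of both lists, beside 12.4% of all shared regions. They were 4 at SOX5, 2 at IRF4 and 2 at SOX10. Of the 18 that named one of the genes, 5 did so. Over the summits that named the 7 genes the median percentile was 65.7 in replicate 1 and 67.9 in replicate 2. Those with a partner had medians of 84.3 and 90.0, while all shared regions of the lists had medians of 63.6 and 70.5. Of these 18 named regions, 11 were at SOX5 and 5 at IRF4. The 20 shared regions inside the gene spans, whichever gene they named, had medians of 69.0 and 78.0, nearer to those of the lists. Summits of the 7 genes without a partner had medians of 52.5 and 45.8, the SOX5 promoter summits included, while all summits without a partner had medians of 20.8 and 26.6. Across the 18 shared regions Spearman's rho between the scores of the replicates was 0.865, beside 0.852 over all 22702 shared regions. Regions of 1 pair of libraries are not independent, so no p-value is given.

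**Figure D3:**
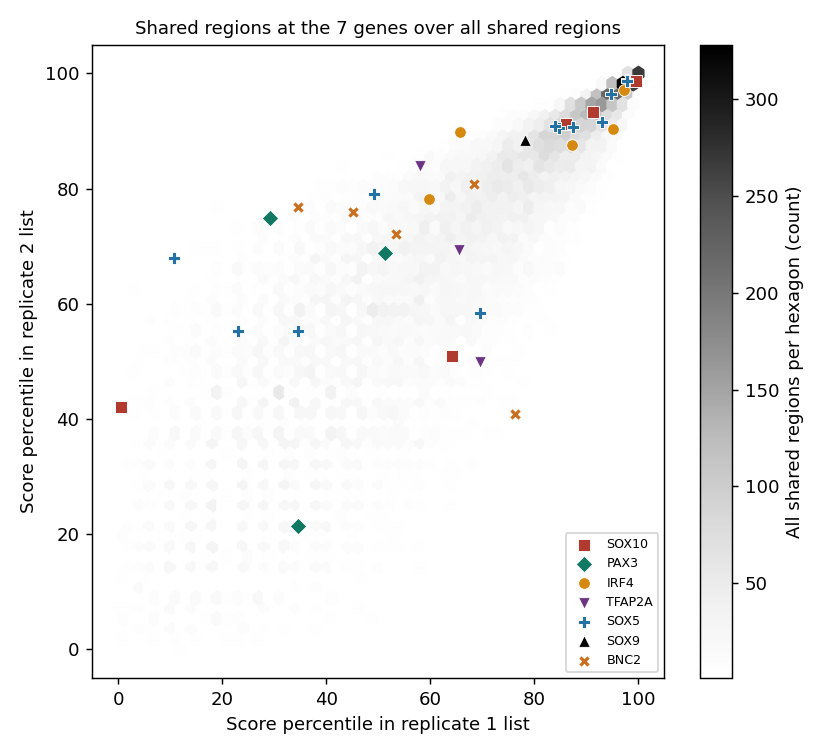
Score percentile in replicate 1 (horizontal) against replicate 2 (vertical) for each shared region that names one of the 7 genes or lies within 50 kb of it, over all shared regions as grey hexagons shaded by count. The 8 regions above the 90th percentile in both lists lay in or within 50 kb of SOX5, IRF4 and SOX10. Of these, 5 named SOX5 or IRF4, and the others named MIR6820, MIR4534 and MIR920.

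The summits of a pair lay a median of 30 bp apart at the 7 genes and 28 bp over all shared regions. The pair in intron 4 of IRF4 was 9 bp apart, and the intron 1 pair of SOX5 fell on the same base in both lists. The widest gap among regions that named a member was 141 bp, at 23862761 and 23862902 in SOX5.

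Other factors of the same lineage were counted from a fixed list of 20. Of these, 13 were named by a shared region at any distance, 6 within 10 kb, and 8 held one inside the span. Over all protein-coding genes the shares were 28.6%, 10.1% and 20.9%. MITF had the most, with 23 regions naming it and 16 inside its span, beside 11 and 12 at SOX5. ZEB2, a zinc finger repressor of neural crest and melanocytes, was named by 1 region but held 12 inside its span, the same kind of gap as at PAX3. SOX8, TFAP2B and MSX2 were named by none and had none within 50 kb of the span, while TFAP2C and KLF4 were named by 4 and 1 more distant regions. Some of the 17 paralogs of the 7 genes are also in the list of 20. Of the 17, 4 were named by a shared region and 3 held one inside the span, beside 28.6% and 20.9% of protein-coding genes. SOX6, the SOXD relative of SOX5, held 15 regions inside its span and had 1 within 1 kb of a TSS. Of 8 other IRF genes, none was named by a shared region, and IRF8 held 1 inside its span. No test of these differences was made.

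**Figure D4:**
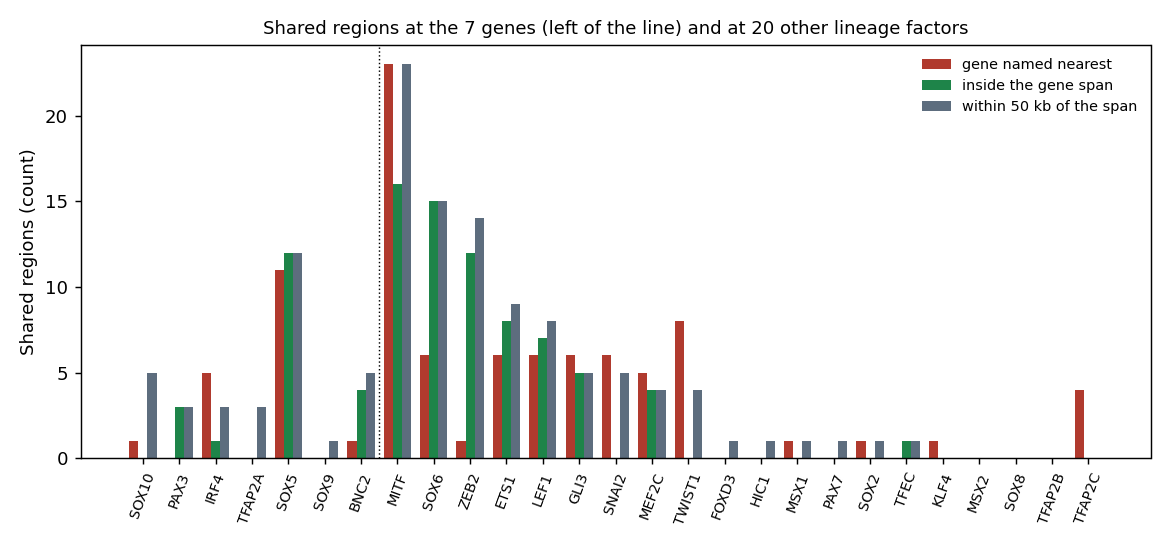
Number of shared regions (vertical axis) at the 7 genes, left of the dotted line, and at the 20 other lineage factors, under the same 3 ways of tying a region to a gene (colours). MITF reaches 23 and SOX5 reaches 12.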

How the data were processed

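The 2 TBX3-3xHA ChIP samples gave 1 peak list each. Per the file headers, the authors annotated the summits of 1 sample with annotatePeaks.pl against hg38, so replicates were not pooled, and each summit carries a deposited score of unstated scale. The submitters' processing notes name FastQC 0.11.7, cutadapt 2.8, Bowtie2 2.3.5, MACS2 2.1.2 and SAMtools 1.9. The control, the threshold and the read depth are not given in the sources used here, so the number of peaks cannot be set against depth. Distances, nearest genes, annotation classes and repeats are those deposited.

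A summit of replicate 1 and one of replicate 2 formed a pair if they were mutually nearest and at most 200 bp apart. The smallest distance between summits of the same list was 415 bp (replicate 1) or 429 bp (replicate 2). Pairing was tested on simulated summits spaced far apart, with partners inside the 200 bp limit, so crowded or borderline pairs were not tested. Gene spans came from RefSeq (GRCh38.p14), where 12420 of 12468 gene identifiers matched. Where a shared region named a gene, the replicate 1 name was used. Intervals are exact binomial (95%), with Python 3.11.15 and scipy 1.17.1. Each gene's region with the lowest rank sum and the one nearest to a TSS are given in full. The members and lists were chosen with earlier results of these data known. ChIP and input were not compared. Sequence around summits was not analysed here.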

Additional observations from a re-analysis of the deposited data

How the results depend on the processing

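No paired analysis was possible because the input samples that share the replicate numbers were not analysed here. The planned search for the T-box core around summits was not run, since it needs a genome sequence. Pairing at 50, 500 or 1000 bp kept the shares of shared summits within their intervals and the counts within 1.5 times; 1000 bp and the window of 50 kb around the span were chosen after seeing the data. The 18 shared regions became 8 with the 5000 highest scores, 32 within 50 kb of the span, and 0, 2 and 5 at most 1, 10 and 50 kb from the TSS; these settings keep fewer or more summits by construction. Single lists, without pairing, held 25 to 31 summits and named 3 to 4 genes within 10 kb. The 2 genes with a region within 10 kb became 4 inside the span, 7 within 50 kb of the span, 0 at most 1 kb and 4 at most 50 kb from the TSS. The share of shared summits was 0 in both lists at most 1 kb from the TSS, where each held 1 summit, and 50.0% of 4 at most 10 kb from it in replicate 1. The median percentile moved to 84.3 and 90.0 for summits with a partner, and to 90.6 and 81.3 at most 50 kb from the TSS, in replicates 1 and 2; the cause was not tested. Of 51 alternatives for these results 33 stayed within those limits, and of 91 for single genes 66 did.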

Other observations

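Beyond 50 kb the surroundings of the genes differed. PAX3 stood alone, with the next shared regions 389.5 kb away on the side of EPHA4 (summits at 221810374 and 221810365, scores 59.1 and 129.6) and 200.2 kb away in an intron of SGPP2 (222499196 and 222499253, scores 12.4 and 32.1). On the side of SOX9 away from SOX9-AS1 the first shared region was 445.7 kb off, at 72572100 and 72572109 in an intron of LINC00673, with scores of 54.4 and 96.9. Beside BNC2 the region at 16333919 and 16333878, 75.6 kb beyond the gene and naming C9orf92, scored 75.2 (rank 3010) and 134.9 (rank 2316), above every shared region inside BNC2 in both lists. At SOX5 the next regions outside the gene were 306.4 kb and 55.0 kb away. The first scored 8.54 and 9.09 (percentiles 34.5 and 35.1) and the second 16.6 and 37.5 (percentiles 58.9 and 76.3). These are the nearest shared regions on each side of a gene and are given without a test.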
